A study of Mus musculus with 2 samples.

Results

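The 10 genes described here encode the nuclear end of the Hippo pathway and part of its kinase core. They are the coactivators Yap1 and Wwtr1 (the gene of TAZ), the transcription factors Tead1, Tead2, Tead3 and Tead4, the kinases Lats1 and Lats2, and Amotl2 and Ankrd1, which are widely used as target genes of YAP and TAZ. They were listed by name, with earlier results of these data known. All 10 were found among the 43346 gene rows, of which 42462 carry a symbol and 21474 code for protein. RNA-seq had been done on whole lung of B6NCrl mouse embryos at embryonic day 16.5, from pools of male and female embryos. The 2 libraries are biological replicates 1 and 2 of a single healthy, untreated group, and the labels give 41 embryos for replicate 2. No number is given for replicate 1. A library therefore averages over all cells of the organ and over the embryos of its pool. In such bulk tissue fewer cells of a type and less RNA per cell cannot be told apart.

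In the Hippo pathway, the kinases MST1 and MST2 (genes Stk4 and Stk3) activate LATS1 and LATS2, which phosphorylate YAP and TAZ and keep them in the cytoplasm bound to 14-3-3 proteins. Unphosphorylated YAP and TAZ enter the nucleus, where they bind TEAD factors on DNA and switch on genes that include their own inhibitors. In the developing lung the pathway is known for its part in epithelial branching, in the choice of epithelial fate and in mesenchymal growth. RNA levels show which parts of the pathway a tissue could make. They do not show phosphorylation or the place of a protein in the cell, neither of which was measured.

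The libraries were deep, with 38852470 expected counts for replicate 1 and 27145411 for replicate 2, and the members had between 209 and 5912 counts per library, so counting error was small for most of them. The tissue label was checked against 7 lung genes, Nkx2-1, Sftpc, Epcam, Tcf21, Tbx4, Foxf1 and Pecam1, and 7 of 7 were at 10 TPM or more in both replicates. TPM, a transcript's share of its library scaled to a fixed total, divides counts by transcript length, so it allows levels of different genes to be compared. Means are given ± SD over n = 2. With 1 group there is no comparison between conditions, and so neither tests nor p-values are reported. Markers of liver, skeletal muscle and cardiac muscle differed between the libraries. The summed TPM of 9 liver genes was 63.7 in replicate 1 and 521 in replicate 2, that of 10 skeletal muscle genes was 229 and 648, and that of 11 cardiac muscle genes was 1447 and 1203.

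All 10 genes were expressed in this tissue. At 1 TPM or more in both replicates stood 10 of 10 members, against 61.5% of genes coding for protein. At 10 TPM or more stood 7 of 10, namely Tead2, Amotl2, Yap1, Wwtr1, Lats2, Tead1 and Ankrd1, against 40.3% of genes coding for protein. The median member level was 19.5 ± 0.428 TPM, close to the median of 19.01 ± 0.159 TPM over the 13202 coding genes detected at 1 TPM. The set as a whole was thus of ordinary abundance, and 1 member, Tead2, lay far above the rest.

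**Figure D1:**
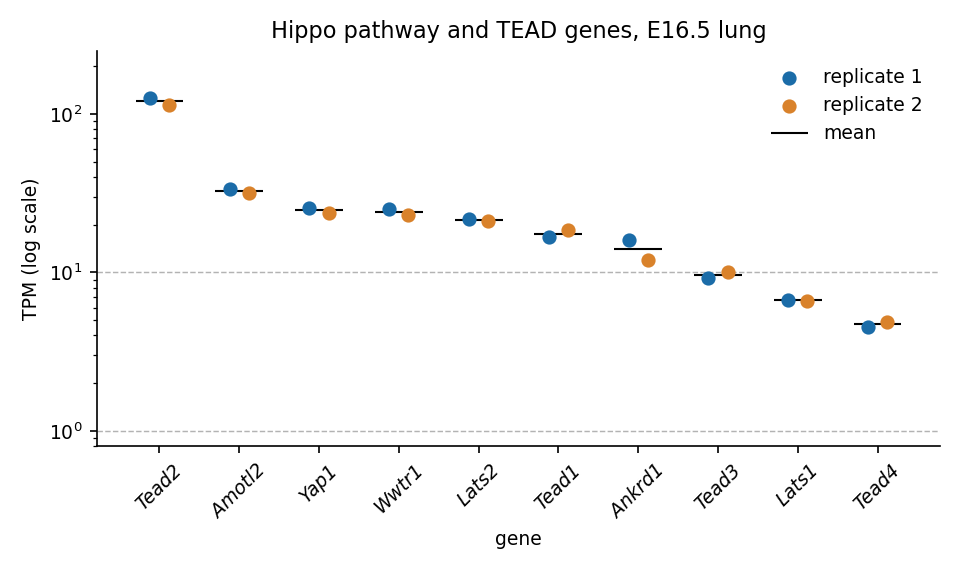
TPM of the 10 genes in each replicate on a log scale, in order of their mean (black line); dashed lines mark 1 and 10 TPM. Tead2 lies near 120 TPM, 3.67-fold above the next gene, Amotl2, and the points of Tead3 lie on either side of 10 TPM.

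The coactivators were present at nearly equal RNA levels. Yap1 (ENSMUSG00000053110.9, chr9:7931999-8004596, minus strand, build mm10) had 25.35 TPM in the first library and 23.79 TPM in the second, from 2597 and 1728 counts. Wwtr1 (ENSMUSG00000027803.10, chr3:57455649-57575910, minus strand) was at 25.12 and 23.03 TPM, from 3017 and 1962 counts. YAP and TAZ are paralogous proteins that share TEAD binding and LATS control, so their levels set the supply of coactivator RNA. The log2 ratio of Yap1 over Wwtr1 was 0.03 ± 0.02, which did not exceed 2 SD, and the order of this pair cannot be given. Together they reached 48.6 ± 2.58 TPM.

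Wwtr1 was made almost wholly of 1 transcript, Wwtr1-201, with 98.64% of its TPM in replicate 1 and 99.60% in replicate 2. Yap1 was divided between a pair of coding transcripts that differ by a segment of 48 nt, or 16 codons. Yap1-201 includes the segment and took 49.36% and 32.43% of Yap1 TPM, and Yap1-202 lacks it and took 45.04% and 61.14%. The leading transcript thus changed between the replicates. Summed over coding transcripts, the segment was present in 52.9% of TPM in replicate 1 and 36.1% in replicate 2, a mean of 44.5 ± 11.8%. It is a whole exon at chr9:7950492-7950539 (minus strand) and begins at codon 314 of Yap1-201. It is shown here, from the GENCODE M21 transcript, because the transcripts that led in each replicate differ by it. Capitals mark the exon and the lower-case bases are 15 nt of each neighbouring exon.
Yap1 48-nt exon: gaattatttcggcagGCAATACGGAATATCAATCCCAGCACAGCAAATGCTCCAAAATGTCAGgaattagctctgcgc

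The TEAD factors were led by Tead2. Tead2 (ENSMUSG00000030796.11, chr7:45215753-45233644, plus strand) was at 125.87 and 113.82 TPM, from 5912 and 3701 counts. TEAD2 is the family member best known from early embryos and from neural and mesenchymal progenitors, and it binds the same DNA element as the other TEAD proteins. Its mean of 120 ± 8.52 TPM was above that of 94.1% of genes coding for protein. Of the 4 TEAD genes' summed 152 ± 6.34 TPM, Tead2 took 78.9 ± 2.32%.

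The other TEAD genes were lower by a wide margin in both libraries. Tead1 (ENSMUSG00000055320.12, chr7:112679318-112906807, plus strand) was at 16.62 and 18.46 TPM. Tead3 (ENSMUSG00000002249.13, chr17:28331671-28350817, minus strand) was at 9.20 and 10.06 TPM. Tead4 (ENSMUSG00000030353.11, chr6:128224288-128300823, minus strand), known for its part in the first lineage choice of the embryo and in muscle, was at 4.51 and 4.89 TPM and was the lowest of the 10 genes. Tead2 was 6.83-fold above Tead1 (log2 ratio 2.77 ± 0.21), 12.4-fold above Tead3 (3.64 ± 0.19) and 25.5-fold above Tead4 (4.67 ± 0.19). Each of these ratios held its sign in both replicates and exceeded 2 SD.

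The level of Tead1 depended on how its transcripts were counted. Its leading transcript by TPM, Tead1-209, is annotated as a retained intron, a noncoding transcript of 646 nt in 3 exons, and it had 60.44% and 57.21% of Tead1 TPM. In counts it held 144 and 107, or 11.1% and 10.6% of the gene. The main coding transcript, Tead1-202, is 9480 nt long and held 1055 and 861 counts, 81.5% and 85.4% of the gene, but 25.89% and 26.84% of TPM. TPM divides by length, so a count on the short transcript weighs far more than one on the long transcript. The third transcript by TPM, Tead1-214, also a retained intron, held 9.43% and 8.30%.

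Without transcripts annotated as noncoding, an alternative chosen after the data were seen, Tead1 was at 5.01 and 6.16 TPM. Tead3 was then at 8.38 and 9.16 TPM, and the order of these genes turned over. The log2 ratio of Tead1 over Tead3 was 0.86 ± 0.02 with all transcripts and -0.66 ± 0.12 without the noncoding ones. The Tead3 value keeps a transcript of unknown class, with no match in GENCODE M21, that held 28.1% of Tead3 TPM in replicate 1. With matched coding transcripts only, Tead3 was at 5.79 and 8.88 TPM and the log2 ratio of Tead1 over Tead3 was -0.37 ± 0.23, which does not exceed 2 SD. The lead of Tead2 did not depend on leaving out noncoding transcripts, since its share of TEAD TPM was then 86.2 ± 1.86%. Which of Tead1 and Tead3 was higher thus rests on the treatment of the short noncoding transcripts of Tead1, and the same choice leaves Tead1 over Tead4 at 0.24 ± 0.13, which does not exceed 2 SD.

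**Figure D2:**
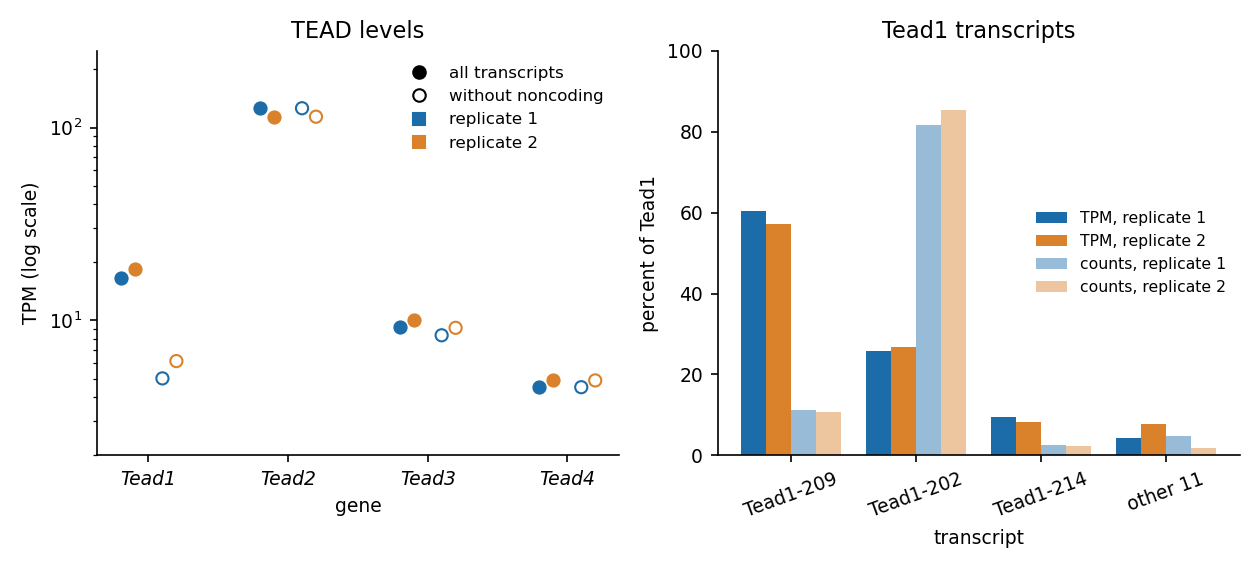
Left, TPM of the TEAD genes on a log scale per replicate, over all transcripts (filled) and without transcripts annotated as noncoding (open); right, percent of Tead1 TPM and of Tead1 expected counts held by each transcript, with the 11 other transcripts summed. Tead1 drops below Tead3 without noncoding transcripts, and Tead1-209 leads by TPM while Tead1-202 leads by counts.

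The Tead1-209 transcript ends in an exon of 487 nt (chr7:112841888-112842374, plus strand), of which the bases outside coding exons are 361. This exon covers a pair of 63-nt coding exons and the 89-nt intron between them. The downstream exon lies in the sequence for the TEA domain, the DNA-binding part of the protein, and 100% of the coding TPM that spans it includes it. The upstream exon was in 4.80% and 6.09% of Tead1 TPM summed over coding transcripts that span it. That sum was 4.58 and 5.91 TPM and leaves out the retained intron transcripts. The shares rest on different transcripts, Tead1-201 in replicate 1 (0.22 TPM, 56.08 counts) and Tead1-208 in replicate 2 (0.36 TPM, 3.06 counts). Each of these had 0 counts in the other library. The exons have 44 of 63 bases in common at the same position (69.8%), and they are printed here because the retained intron transcript contains both of them. Capitals mark the 19 bases that differ, from GENCODE M21 transcript Tead1-201.
Tead1 upstream exon, chr7:112841888-112841950: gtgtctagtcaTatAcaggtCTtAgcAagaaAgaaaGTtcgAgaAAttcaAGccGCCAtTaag
Tead1 downstream exon, chr7:112842040-112842102: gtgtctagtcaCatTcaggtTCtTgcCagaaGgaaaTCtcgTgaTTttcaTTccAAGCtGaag

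A further Tead1 exon of 12 nt, at chr7:112856053-112856064, was in 6.11% and 10.2% of coding TPM, or 0.28 and 0.60 TPM. In replicate 1 this was mainly Tead1-201, with 56.08 counts there and 0 in replicate 2. In replicate 2 it was Tead1-212 alone, with 10.91 counts there and 1.5 in replicate 1. Tead1-202, the main coding transcript, lacks both the 63-nt upstream exon and the 12-nt exon, so most Tead1 coding RNA was of the short form. The 12-nt exon is shown in capitals between 15 nt of its neighbours.
Tead1 12-nt exon: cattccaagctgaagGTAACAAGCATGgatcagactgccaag

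Tead2 and Tead4 also had coding segments that were used in part. Tead2-201, which holds 72.73% and 62.48% of Tead2 TPM, includes 105 nt that Tead2-202, at 9.88% and 17.75%, lacks through another 5′ splice site. Summed over matched coding transcripts, the segment was in 88.4% of TPM in replicate 1 and 78.6% in replicate 2. It encodes 35 codons and lies in the part of the gene that encodes the TEA domain. Tead2-201 is 2115 nt in the deposited tables and 2140 nt in GENCODE M21, and a mean of 16.0% of Tead2 TPM was on transcripts with no match there, which this share leaves out. The segment lies at chr7:45217346-45217450 (plus strand) and is in capitals.
Tead2 105-nt segment: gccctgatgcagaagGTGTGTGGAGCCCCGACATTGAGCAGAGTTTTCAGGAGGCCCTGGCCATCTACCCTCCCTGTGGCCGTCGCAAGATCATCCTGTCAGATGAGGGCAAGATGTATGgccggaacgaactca

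Tead4 was divided evenly and alike in both libraries. Tead4-201 had 49.34% and 50.65% of its TPM and Tead4-203, which lacks an exon of 129 nt (43 codons), had 49.96% and 49.35%. The exon was thus in 49.8% and 50.7% of coding TPM, from 269 and 209 counts on the whole gene. It lies at chr6:128247960-128248088 (minus strand) and is shown in capitals as the most evenly divided segment of the set.
Tead4 129-nt exon: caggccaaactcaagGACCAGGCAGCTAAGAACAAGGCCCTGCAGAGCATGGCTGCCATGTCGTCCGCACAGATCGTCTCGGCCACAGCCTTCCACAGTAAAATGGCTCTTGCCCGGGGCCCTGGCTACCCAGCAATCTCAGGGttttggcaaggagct

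**Figure D3:**
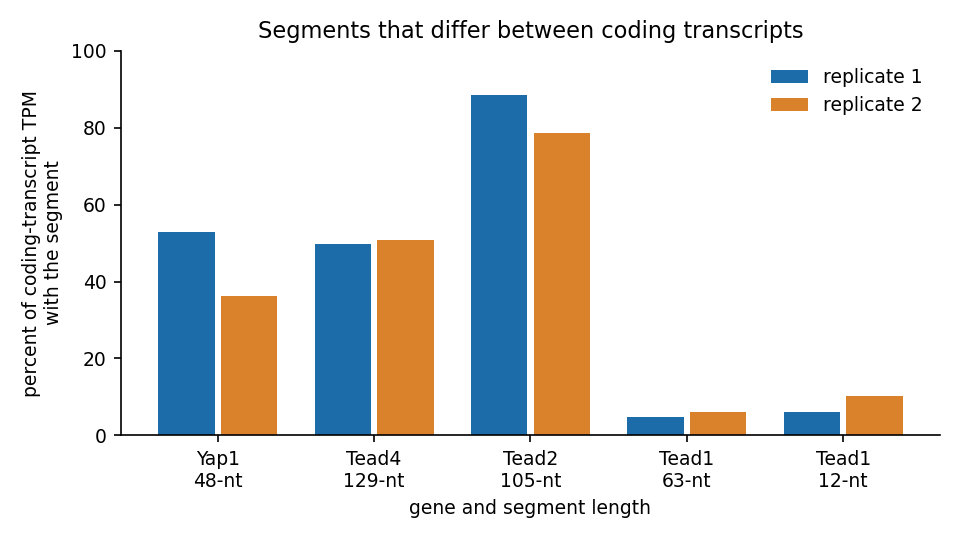
Percent of coding-transcript TPM that includes each segment, per replicate, for the 5 segments described. The Yap1 exon went from 52.9% to 36.1% between the replicates and the Tead4 exon stayed near 50.2%; the Tead1 segments were below 11% in both.

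These shares come from the authors' assignment of reads to whole transcripts, not from reads across a splice junction, and a share pools every difference between the transcripts. The segments were chosen after the shares had been seen. For Tead3, Tead3-201 led with 55.47% and 70.01% of its TPM. Over the 10 genes, the same transcript led in both replicates for 7, and the others were Yap1, Tead4 and Amotl2. The leading transcript codes for protein in 9 of 10, the exception being Tead1.

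The kinase genes differed in level from each other. Lats2 (ENSMUSG00000021959.11, chr14:57689662-57758388, minus strand) was at 21.73 and 21.10 TPM, from 2753 and 1930 counts. Lats1 (ENSMUSG00000040021.8, chr10:7681214-7716460, plus strand) was at 6.68 and 6.62 TPM, from 1237 and 872 counts. Both kinases phosphorylate YAP and TAZ, and Lats2 is itself a target gene of YAP in many cells. Lats2 was 3.22-fold above Lats1, a log2 ratio of 1.69 ± 0.02. Each was made mainly of 1 coding transcript, Lats2-201 with 89.71% and 92.32% and Lats1-202 with 99.09% and 100%. Lats2 overlaps the gene Gm49361 on the same strand, which has no row in the tables, and the pseudogene Gm20430 on the other strand, listed at 9.49 and 17.93 TPM.

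Amotl2 was the highest member after Tead2. Amotl2 (ENSMUSG00000032531.11, chr9:102716672-102733418, plus strand) was at 33.74 and 31.57 TPM, from 3094 and 2081 counts. It encodes an angiomotin-like junction protein that binds and restrains YAP, and it is also switched on by YAP. Amotl2 was 1.33-fold above Yap1 (log2 ratio 0.41 ± 0.00302). Its RNA was shared by Amotl2-201, with 47.09% and 39.16%, and Amotl2-203, with 41.66% and 40.69%.

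Ankrd1 varied most between the replicates. Ankrd1 (ENSMUSG00000024803.8, chr19:36111961-36120099, minus strand) has a single transcript row, Ankrd1-201, and had a level of 16.01 TPM in the first library but 11.99 TPM in the second, from 697 and 370 counts. It encodes a nuclear ankyrin-repeat protein that is a YAP target in epithelial and mesenchymal cells and is also abundant in heart and stretched skeletal muscle. On the log2(TPM + 1) scale replicate 2 was lower by 0.39, where genes of 10 to 100 TPM had an SD of 0.24 between the replicates. Its Poisson intervals for counting error were 646 to 751 counts and 333 to 410 counts.

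Cardiac and skeletal muscle markers also differed between the replicates, but not all in the same direction. Of 10 cardiac markers whose mean reached 1 TPM, 7 were lower in replicate 2 and the median log2 difference was -0.32. Of the 15383 genes compared, 7618 were lower in replicate 2. Myl7, the atrial light chain, was at 565 and 377 TPM, and Myh6 was at 81.8 and 49.2 TPM. Not all went this way: Nppa was higher in replicate 2, at 102 and 136 TPM, as were Actc1 (339 and 350 TPM) and Ttn (19.4 and 20.0 TPM). Myh7, counted among the 7 lower, was nearly level at 18.4 and 18.3 TPM. Of 9 skeletal markers 9 were higher in replicate 2, the median log2 difference being 1.44. Past 2-fold were 6 of them, against 2.65% of all genes compared. The share of Ankrd1 RNA that came from cardiac or skeletal muscle cells was not tested.

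Between the replicates no member passed 2-fold. The count was 0 of 10, against 2.65% of the 15383 genes whose mean reached 1 TPM (408 genes), so a count of 0 is near that background. Replicate 2 was lower for 7 members (Ankrd1, Tead2, Wwtr1, Amotl2, Yap1, Lats2 and Lats1) and higher for 3 (Tead1, Tead3 and Tead4). Of all genes compared, 7618 were lower in replicate 2 and 7721 higher. The median log2 difference was -0.06 and the range was -0.39 to 0.14, with a median of 0.00 over all genes compared. Tead2, for all its abundance, was lower in replicate 2 by 0.14, where genes of 100 to 1000 TPM had an SD of 0.15.

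**Figure D4:**
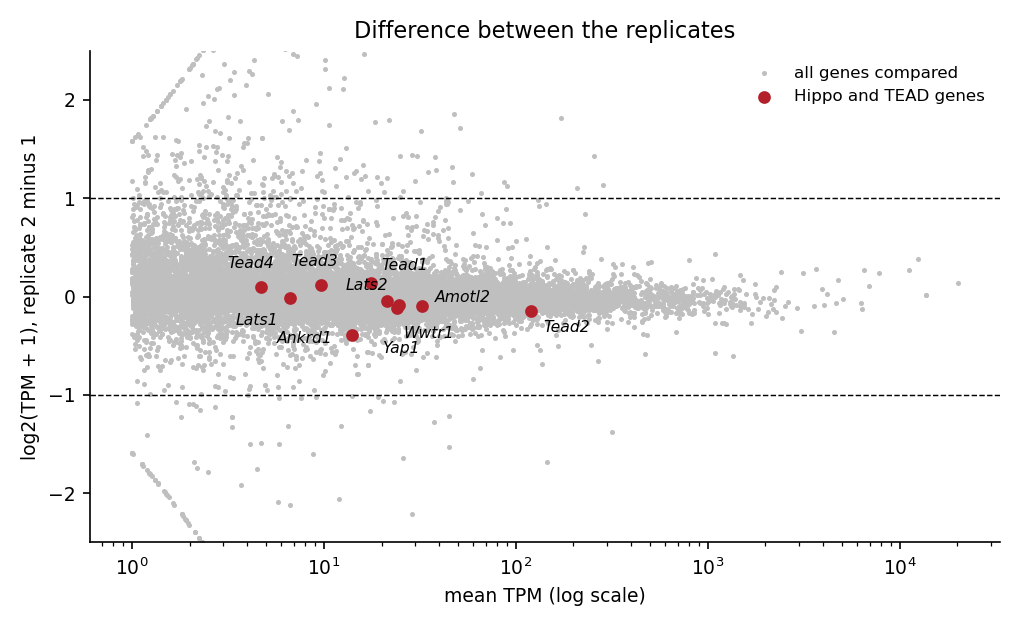
Difference between the replicates on log2(TPM + 1) against mean TPM (log scale) for the 15383 genes compared (grey) and the 10 members (red); dashed lines mark 2-fold, and 69 genes lie outside the plotted range. The members lie between -0.39 and 0.14, with Ankrd1 the lowest.

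The order of the levels was Tead2, Amotl2, Yap1, Wwtr1, Lats2, Tead1, Ankrd1, Tead3, Lats1 and Tead4. Of 45 pairs, 42 held their sign in both replicates beyond 2 SD, and of the 9 pairs of neighbours 6 did so. The exceptions were Yap1 with Wwtr1, Tead1 with Ankrd1 (log2 ratio 0.34 ± 0.40) and Ankrd1 with Tead3 (0.53 ± 0.39). Ankrd1, the member whose replicates stand farthest apart, is in both of the last pairs. The place of Tead1 in this order rests on its noncoding transcripts. Without them 41 of 45 pairs exceeded 2 SD with 1 sign in both replicates, and 4 pairs had the opposite mean sign to before. Tead1 over Lats1 went from a log2 ratio of 1.40 ± 0.12 to -0.26 ± 0.22, which does not exceed 2 SD, and Tead1 over Ankrd1 from 0.34 ± 0.40 to -1.32 ± 0.51, which does. The others were Tead1 over Tead3 and Yap1 over Wwtr1, at -0.03 ± 0.02. With 2 libraries of 1 group, genes whose pattern is like that of a member could not be ranked.

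The promoters of the members were searched for GGAATG, the core of the element that TEAD proteins bind, on both strands. RefSeq promoter windows on GRCm38.p6 run from 250 bases before to 50 after a gene's start. Of 8 members with a window, 6 held the motif (Amotl2, Ankrd1, Lats2, Tead3, Wwtr1 and Yap1), against 16.6% of the 27025 genes with a window. Tead2 and Lats1 had none, and Tead1 and Tead4 had no window. A match to 6 bases is a description of the sequence and shows no binding, which was not measured here. Windows of 1 gene overlap, so the matches are not independent.

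Ankrd1 held 2 matches, 123 and 210 bases before its start, and Tead3 held more, with 3 in 1 window and another in its second window. Of all windows, 1.36% held 2 or more. Amotl2 held 1, on the reverse strand, 65 bases before. Wwtr1 held 1 site, 136 and 170 bases before its pair of RefSeq starts, and Yap1 held 1, 141 bases before. The Ankrd1 and Amotl2 sites overlap exons of their GENCODE M21 genes, whose starts differ from those of RefSeq. The sites of the targets and coactivators are printed in 30-base windows with the motif in capitals (CATTCC is GGAATG read on the other strand), to show the letters matched in the coactivator genes and in Amotl2 and Ankrd1. The matches of Lats2 and Tead3 are not printed.
Ankrd1 site 1, chr19:36119950-36119979, minus strand: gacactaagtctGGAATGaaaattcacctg
Ankrd1 site 2, chr19:36120037-36120066, minus strand: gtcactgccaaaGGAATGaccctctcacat
Amotl2 site, chr9:102717727-102717756, plus strand: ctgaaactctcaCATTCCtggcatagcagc
Wwtr1 site, chr3:57576029-57576058, minus strand: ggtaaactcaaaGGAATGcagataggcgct
Yap1 site, chr9:8004720-8004749, minus strand: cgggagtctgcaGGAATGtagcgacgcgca

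Genes that act around the members were read from lists. The counts of each list stand beside 61.5% of genes coding for protein at 1 TPM or more in both replicates. At 10 TPM that share was 40.3%. In the core kinase cassette (8 genes, with Lats1 and Lats2 among them) 8 of 8 were at 1 TPM in both replicates and 6 at 10 TPM, with a median of 21.7 ± 2.27 TPM. Mob1a, the coactivator of LATS, was highest at 61.2 ± 0.339 TPM, followed by Stk3 (36.9 ± 1.56) and Nf2 (34.1 ± 0.919), which recruits LATS to the membrane. Sav1, the scaffold of the MST kinases, was lowest at 2.09 ± 0.332 TPM, below Lats1. Of the MAP4K and TAO kinases, which act on LATS in parallel with MST, 10 of 10 were at 1 TPM and 7 at 10 TPM. Taok2 led at 44.6 ± 1.14 TPM, with Taok3 and Map4k3 next at 32.5 ± 1.89 and 31.5 ± 0.523 TPM, and Mink1 and Map4k1 were lowest at 8.67 ± 0.205 and 5.41 ± 0.276 TPM.

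Regulators at the membrane and at junctions were all detected, at lower levels. Of 18 genes, Amotl2 among them, 18 were at 1 TPM and 10 at 10 TPM, with a median of 13.5 ± 0.131 TPM. Ctnna1, the alpha-catenin of adherens junctions, stood far above the rest at 194 ± 0.219 TPM, and Crb3 and Limd1 followed at 52.5 ± 0.184 and 48.8 ± 2.47 TPM. Among the angiomotins, Amotl2 exceeded Amotl1 (14.8 ± 0.0849 TPM) and Amot (5.93 ± 0.262 TPM). Fat4, an atypical cadherin, and Fjx1, which modifies Fat signalling, were lowest at 3.93 ± 0.0919 and 2.25 ± 0.0212 TPM.

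The vestigial-like cofactors, which bind TEAD in place of YAP and TAZ, were dominated by Vgll4. Vgll4, which represses TEAD targets, was at 107.38 and 104.92 TPM, a mean of 106 ± 1.74 TPM and more than the 48.6 TPM of Yap1 and Wwtr1 together. Vgll3 was at 2.44 ± 0.346 TPM. Vgll2 and Vgll1 were below 1 TPM in both replicates, at 0.56 ± 0.0990 and 0.115 ± 0.106 TPM, Vgll1 from 2 and 5 counts. Only 2 of the 4 thus reached 1 TPM.

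A published signature of YAP and TAZ targets, 22 genes with Amotl2, Lats2 and Ankrd1 among them, was detected throughout. At 1 TPM in both replicates were 22 of 22 and at 10 TPM 16, with a median of 16.6 ± 1.503 TPM. Among genes coding for protein the shares were 61.5% and 40.3%. The highest were Tgfb2 (86.8 ± 1.80 TPM), Rbms3 (86.1 ± 0.721) and Ccn1 (57.8 ± 10.9), the matricellular gene long called Cyr61. The lowest were Fjx1 and Dock5 (1.57 ± 0.191 TPM). None passed 2-fold between the replicates, which is near the 2.65% of all genes compared that did. In replicate 2, 15 were lower and 7 higher, and the median log2 difference was -0.04. Of the 15383 genes compared, 7618 were lower and 7721 higher. Ccn1, at 65.50 and 50.11 TPM, was lower in replicate 2 by 0.38, about as far as Ankrd1. The widest difference of the list was in the other direction, F3, the gene of tissue factor, at 25.30 and 35.26 TPM, higher by 0.46. Levels in whole lung at a single age carry no measure of YAP or TAZ activity.

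**Figure D5:**
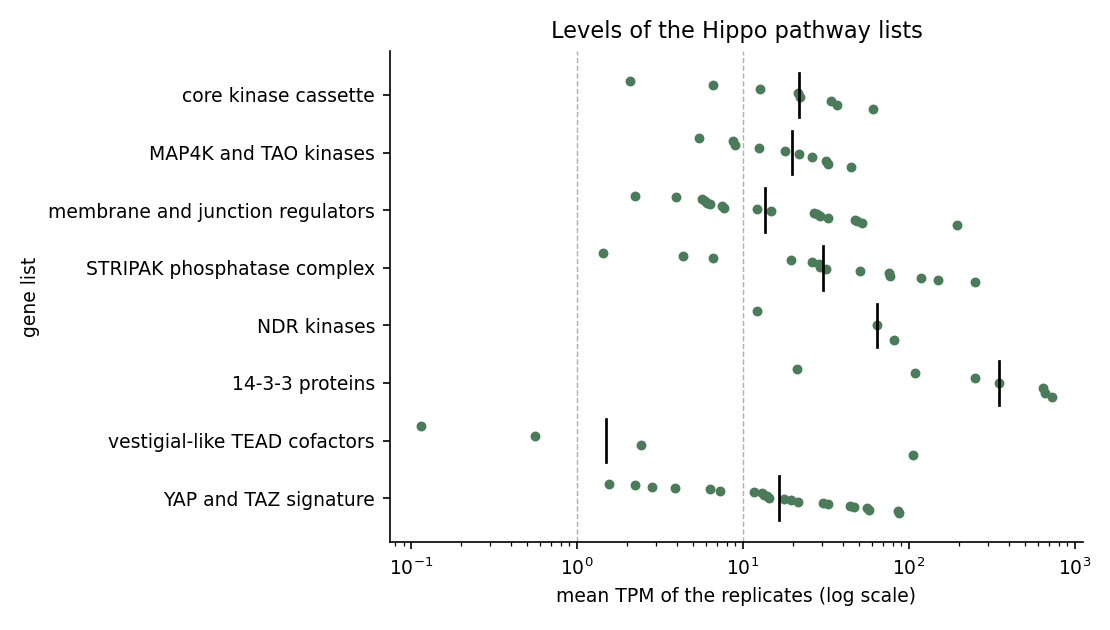
Mean TPM over the replicates (log scale) of each gene in the 8 lists around the Hippo pathway; black bars are the list medians and dashed lines mark 1 and 10 TPM. The 14-3-3 proteins are highest, with a median of 348 TPM, and the vestigial-like cofactors lowest, with Vgll4 alone near 106 TPM.

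Each library also held the main cell types of lung, so the members' levels cannot be assigned to one of them. Of the epithelial, mesenchymal, endothelial and smooth muscle marker lists, 6 of 6 genes each were at 10 TPM or more in both replicates, with medians of 199 ± 4.29, 191 ± 0.718, 76.0 ± 2.74 and 44.4 ± 0.626 TPM. Of 5 mesothelial markers 5 were at 1 TPM, and 5 of 5 were higher in replicate 2, by a median of 0.24 on the log2 scale. Of all 15383 genes compared, 7721 were higher in replicate 2.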

How the data were processed

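For each library of E16.5 lung the authors deposited a gene and a transcript table on mm10 with GENCODE M4, as stated in a text file that accompanies each library's tables; the aligner and counting tool are not given in the sources used here. The deposited expected counts are estimated read numbers, the deposited TPM and FPKM values divide them by effective length, the deposited score columns are credibility bounds within a library (not used), and the deposited percent values give a transcript's share of its gene's TPM. Posterior mean TPM, per the file headers, is a second estimate. Gene symbols, classes and exons came from GENCODE M21 by identifier, which matched 66 of the members' 77 transcripts, 59 with the same length. Rows that name no gene (26345, spike-ins among them) held 2.30% and 2.32% of counts and were left out of the comparisons. The strand setting is not given, so overlapping genes cannot be told apart.

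The members and gene lists were chosen with earlier results of these data known. Named are the members, the 3 highest and 2 lowest genes of each list by mean TPM, any gene at 0 in both replicates or past 2-fold, and each member's leading transcript with any at 20% or more in both; cell type marker lists are given mainly by sums and counts, and genes outside this rule (such as Amot, Amotl1, Tead1-214) were named after their values were seen. A ratio held its sign when both replicates had it and its mean exceeded 2 SD. Fold differences used log2(TPM + 1), which understates those of low genes. No column belonged to another sample (0 columns). Expected counts were rounded for edgeR 4.0.16 (TMM) and DESeq2 1.42.0 (size factors) in R 4.3.3; other steps used Python 3.11.15, NumPy 2.4.6, pandas 2.3.3 and matplotlib 3.10.9. The 2-fold count was tested on simulated Poisson counts with planted changes. These covered only genes with a mean of 10 TPM or more and held no spread between replicates beyond counting error. The exon shares were checked on a small made-up example. Intervals are exact Poisson at 95% and cover counting error only. Alternatives were other estimates, pseudocounts, filters and scalings, and each replicate left out.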

Additional observations from a re-analysis of the deposited data

How the results depend on the processing

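With 2 libraries of 1 group the spread is known only roughly, and Tead3, Tead4 and Ankrd1 rest on 209 to 697 counts. The median member level was 20.1 TPM by posterior means, 13.2 by FPKM, 20.6 after rescaling over named genes and 17.7 without noncoding transcripts. Of the 42 pairs whose sign held, those that turned over without noncoding transcripts were Tead1 over Tead3, at a log2 ratio of -0.66 (-0.37 with matched coding transcripts only), and Tead1 over Lats1, at -0.26 in both. In counts not divided by length they were Yap1 over Lats2 (-0.12), Ankrd1 over Lats1 (-1.03) and Tead3 over Lats1 (-1.005). Of the 3 other pairs, Yap1 over Wwtr1 was at -0.03 without noncoding transcripts and -0.20 in undivided counts, Tead1 over Ankrd1 at -1.32 without noncoding transcripts, and Ankrd1 over Tead3 at -0.03 in undivided counts. Members at 10 TPM or more numbered 6 or 7 under other estimates and 7 or 8 when a replicate was left out. No member passed 2-fold under the 7 other settings tried, where 0.774% to 4.21% of all genes compared did. The difference of Ankrd1 lay between -0.43 and -0.31 in all of those that recompute it. The order of neighbours could not be computed without a replicate, since its rule needs both. No paired analysis was possible because the samples form a single group.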

Other observations

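Other parts of the Hippo network were also detected. Among genes coding for protein, 61.5% were at 1 TPM or more in both replicates and 40.3% at 10 TPM. In the STRIPAK phosphatase complex, which removes activating phosphates from the MST kinases, 14 of 14 genes were at 1 TPM or more in both replicates and 11 at 10 TPM, with a median of 30.4 ± 1.09 TPM. Ppp2r1a, the scaffold subunit of PP2A, was highest at 249.6 ± 8.31 TPM, ahead of Stk25 (149.6 ± 4.43) and Mob4 (118 ± 1.16). Strn and Strip2 were lowest, at 4.34 ± 0.0141 and 1.44 ± 0.240 TPM. Of the NDR kinases, relatives of LATS, and their partner Mob2, 3 of 3 were at 10 TPM, with Stk38 at 80.9 ± 2.56, Mob2 at 64.4 ± 4.46 and Stk38l at 12.1 ± 1.25 TPM. The 14-3-3 genes, whose proteins hold phosphorylated YAP in the cytoplasm and many other clients, were at 10 TPM in 7 of 7, with a median of 348 ± 1.91 TPM. Ywhae, Ywhaq and Ywhaz led at 728 ± 44.2, 663 ± 32.5 and 643 ± 48.1 TPM, and Ywhag and the epithelial gene Sfn were lowest at 108.5 ± 3.62 and 21.3 ± 4.55 TPM.

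In some genes the measures within a gene moved apart. For Tead3, the unmatched transcript ENSMUST00000080572 had 28.10% of TPM in replicate 1 and 2.76% in replicate 2, whereas Tead3-206 had 0% and 16.58%. The gene itself was at 9.20 and 10.06 TPM. Shares from posterior mean TPM lay closer together, at 18.34% and 13.41% for ENSMUST00000080572 and 13.69% and 11.89% for Tead3-206. For Stk4, TPM was 18.50 and 25.55, a ratio of 1.38 of replicate 2 over replicate 1, whereas CPM, which does not divide by length, was 61.1 and 62.6, a ratio of 1.03. For F3, a signature gene, both measures were higher in replicate 2, with ratios of 1.39 in TPM and 1.41 in CPM. The cause of these differences was not tested, and the genes were chosen after their values were seen.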
